A study of Homo sapiens with 18 samples.

Results

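The 10 genes described here belong to the bone morphogenetic protein (BMP) pathway: the ligand genes BMP2, BMP4, BMP5 and BMP7, the inhibitor of DNA binding genes ID1, ID2, ID3 and ID4, and the inhibitory SMAD genes SMAD6 and SMAD7. They were chosen by symbol, and each of the 10 had 1 row in the deposited table of 37550 rows. All 10 were among the 17033 genes that were tested, which had at least 1 TPM (a transcript abundance corrected for length and scaled to a fixed total per library) in at least 2 of the 18 libraries. BMP5 reached 1 TPM in the midbrain and hindbrain media only.

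BMPs are secreted ligands that bring type I and type II serine/threonine kinase receptors together at the cell surface. The receptors phosphorylate SMAD1, SMAD5 and SMAD9, which enter the nucleus with SMAD4 and switch on targets, among which the ID genes are the best known. ID proteins have a helix-loop-helix domain without the basic region that binds DNA, and they hold E proteins away from proneural factors. SMAD6 and SMAD7 are themselves induced by BMP or TGF-beta signalling and act as feedback inhibitors. In the early ectoderm BMP signalling favours surface over neural fate, and its inhibition is a standard step in making neural cells from pluripotent cells. Later, BMPs from the roof plate and overlying ectoderm pattern the dorsal neural tube.

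All 18 libraries came from H1, an established line of human pluripotent stem cells that the labels give as wild type, in 9 groups of 2 replicates. Of these, 1 was undifferentiated (hPSC, day 0) and 2 were neural ectoderm of day 2, either anterior (aNE) or posterior (pNE). The other 6 were cells of each kind taken on through forebrain (aNE_T, pNE_T), midbrain (aNE_M, pNE_M) or hindbrain (aNE_H, pNE_H) medium and collected at day 4. All groups but hPSC had passed through a shared day-1 medium with the TGF-beta receptor inhibitor A8301, the MEK inhibitor trametinib at 250 nM, the WNT secretion inhibitor C59 and the BMP receptor inhibitor LDN193189 at 100 nM. On day 2 both populations again received A8301 at 1 µM and LDN193189 at 100 nM, with C59 at 1 µM for aNE. The medium of pNE also held TTNPB, which activates retinoic acid receptors, at 50 nM, and FGF2 at 20 ng/mL. It further held 1 µM XAV939, which lowers WNT signalling through tankyrase. Thiazovivin, which helps dissociated cells survive, was in both day-2 media. The forebrain medium of day 3 held XAV939, LDN193189 at 100 nM and FGF2, and the composition of the other day-4 media is not used here. Plating density was 37500 cells per cm2 for both day-2 groups, but 75000 for aNE-derived and 150000 for pNE-derived cells at day 4, so origin and density cannot be told apart at day 4.

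Replicates of a group correlated across the tested genes with Pearson's r of 0.982 to 0.987, and libraries from unlike groups with 0.879 to 0.968. TPM carries no record of sequencing depth, which is therefore unknown. The labels call the replicates distinct biological replicates, and with 2 per group the p-values rest on a spread shared over all 9 groups. Of the neural ectoderm markers, SOX2 averaged 293 TPM in aNE but 196 TPM in pNE, and PAX6 averaged 29.1 and 1.94 TPM. SOX1 averaged 7.20 and 1.14 TPM, and HES5 was below 1 TPM in both. CDH2 averaged 145 TPM in aNE and 96.0 TPM in pNE, against 18.8 TPM in hPSC. In pNE the markers PAX6, SOX1 and HES5 were thus low or near 0, while SOX2 and CDH2 were not.

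Promoter windows from RefSeq (GRCh38.p14) were available for 8 of the 10 genes. Those of ID1, ID2 and SMAD6 are shown because the changes of these genes from day 2 to day 4 differed between the origins in all 3 media, and that of ID3 because it belongs to the same family and had a different pattern. Each is the 250 bases upstream of the annotated start, 5′ to 3′ on the gene's strand, with the SMAD box GTCT or its complement AGAC in capitals. The windows lie at chr20:31605039-31605288 (plus strand, ID1), chr2:8681806-8682055 (plus strand, ID2), chr15:66701986-66702235 (plus strand, SMAD6) and chr1:23559502-23559751 (minus strand, ID3).
ID1: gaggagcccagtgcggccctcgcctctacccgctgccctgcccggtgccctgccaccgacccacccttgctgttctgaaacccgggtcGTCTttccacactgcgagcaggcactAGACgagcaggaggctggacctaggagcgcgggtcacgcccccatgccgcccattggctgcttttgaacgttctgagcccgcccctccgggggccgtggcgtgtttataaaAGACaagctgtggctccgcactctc
ID2: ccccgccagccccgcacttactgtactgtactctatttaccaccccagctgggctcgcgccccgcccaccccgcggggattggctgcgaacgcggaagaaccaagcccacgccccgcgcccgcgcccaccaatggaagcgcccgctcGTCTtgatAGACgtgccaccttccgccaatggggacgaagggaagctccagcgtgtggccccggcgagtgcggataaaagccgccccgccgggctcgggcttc
SMAD6: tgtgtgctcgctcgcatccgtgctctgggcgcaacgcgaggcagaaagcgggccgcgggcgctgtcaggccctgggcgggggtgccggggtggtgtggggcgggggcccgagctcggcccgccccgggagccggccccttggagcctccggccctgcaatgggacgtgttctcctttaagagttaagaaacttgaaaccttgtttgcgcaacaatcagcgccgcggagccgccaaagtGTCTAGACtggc
ID3: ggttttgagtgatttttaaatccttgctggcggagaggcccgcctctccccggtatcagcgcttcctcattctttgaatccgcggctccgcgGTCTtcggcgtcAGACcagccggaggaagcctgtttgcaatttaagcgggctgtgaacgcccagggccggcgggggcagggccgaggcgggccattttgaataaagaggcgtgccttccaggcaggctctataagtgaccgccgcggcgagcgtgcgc

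The box, searched on both strands, occurred 3 times in the ID1 window and 2 times in each of the other windows shown. It is a short motif, held by 77.5% of all 35116 windows of this length. In SMAD6 the 2 boxes lie head to head as the palindrome GTCTAGAC, which was held by 0.182% of all windows and by no other window of the 10 genes. The palindrome overlaps the single boxes and was searched after the window had been seen. The GC-rich element GGCGCC, held by 16.4% of windows, was in none of those shown. The well-studied BMP-responsive element of ID1 lies further upstream than this window.

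Differences are given on the scale of log2(TPM + 1), which understates changes of low genes. A gene is called changed when limma's moderated test gave an adjusted p under 0.05 over all tested genes and the absolute log2 difference was at least 1. Over 18 pairwise comparisons and 3 interactions, 93 of the 210 tests of these genes were called. Comparisons that use the same group share its libraries and are not independent. The median log2 difference over all tested genes lay between -0.08 and 0.07 in every comparison.

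In both day-2 populations BMP2, BMP4, BMP7 and ID4 were higher than in hPSC and SMAD7 was lower, whereas BMP5 was not called. In aNE against hPSC 6 of the 10 genes were called, against 13.5% of all tested genes, with 5 higher, 1 lower and a median log2 difference of 1.00. In pNE against hPSC 7 were called (12.9% of all genes), 4 higher and 3 lower, with a median of 0.54. The direct comparison of pNE with aNE gave 3 genes (3.85% of all genes), BMP4, ID1 and ID2, all lower in pNE, with a median of -0.28.

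At day 4 the origins were compared within each medium. Between pNE-derived and aNE-derived cells 3 genes were called in forebrain medium (7.77% of all genes), 4 in midbrain medium (5.74%) and 6 in hindbrain medium (6.83%). The medians were 0.14, 0.02 and 0.50. Without pNE_H replicate 1 the hindbrain count was 4, since ID3 and SMAD6 were lost, and by adjusted p alone the counts were 6, 8 and 8. ID1 and SMAD6 were higher in pNE-derived cells in all 3 media.

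From day 2 to day 4 more of these genes rose in cells of posterior than in cells of anterior origin, as counts. In aNE-derived cells 2 genes were called in forebrain medium (9.03% of all genes), 5 in midbrain medium (12.0%) and 4 in hindbrain medium (10.1%), of which 1, 3 and 2 rose. In pNE-derived cells 7 were called in forebrain medium (10.2%), 5 in midbrain medium (12.7%) and 7 in hindbrain medium (12.3%), of which 5, 5 and 6 rose. The medians were -0.16, -0.49 and 0.10 for the anterior and 0.86, 1.01 and 1.37 for the posterior origin. The difference between these responses, tested as an interaction, was called for 5 genes in each medium, against 7.14%, 7.02% and 7.83% of all genes in the forebrain, midbrain and hindbrain media, with medians of 0.20, 0.91 and 0.72.

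Media were also compared within an origin. In aNE-derived cells 4 genes differed between the midbrain and forebrain media (10.1% of all genes), 2 between hindbrain and forebrain (6.60%) and 2 between hindbrain and midbrain (4.92%). In pNE-derived cells the counts were 4 (8.60%), 3 (5.03%) and 4 (5.99%) in the same order. The medians were 0.11, 0.07 and -0.32 in aNE-derived and -0.19, 0.51 and 0.66 in pNE-derived cells. BMP5 was called higher in the midbrain and hindbrain media than in the forebrain medium in both origins.

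**Figure D1:**
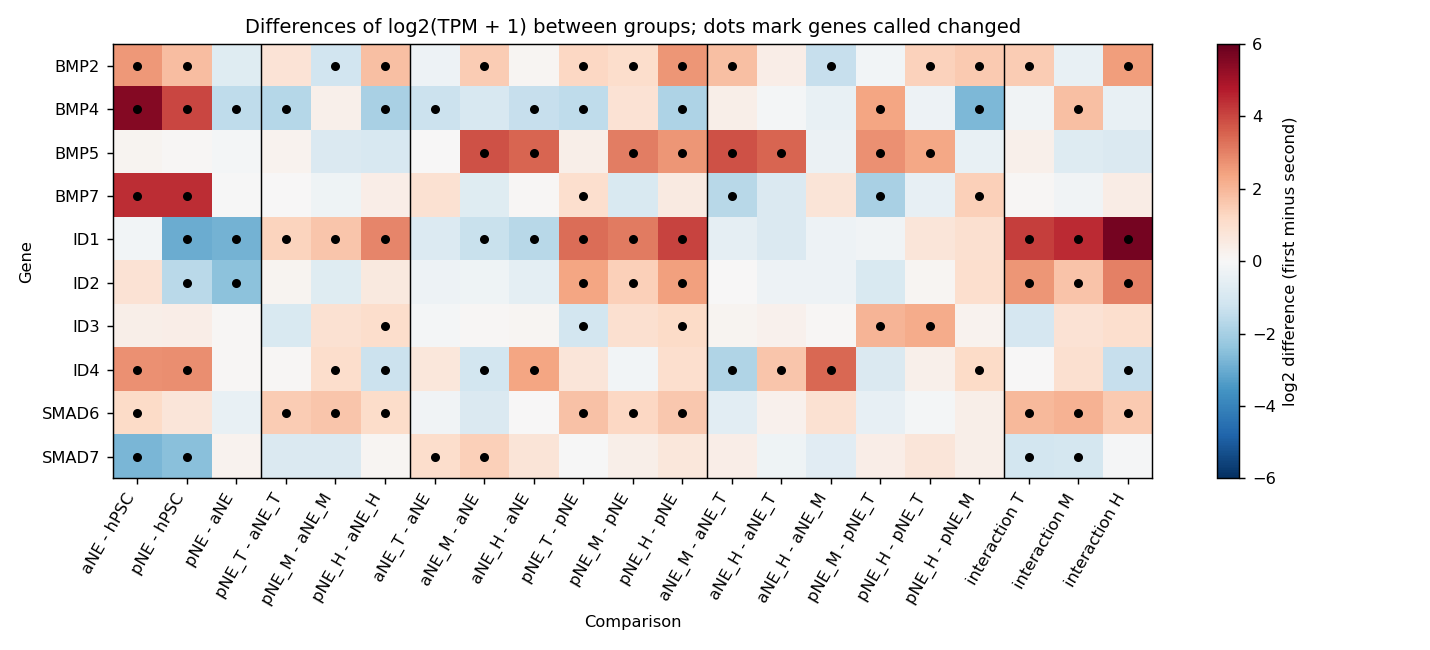
Differences of log2(TPM + 1) for the 10 genes (rows) in 18 pairwise comparisons and 3 interactions (columns, first group minus second; an interaction is the change of pNE-derived minus that of aNE-derived cells in 1 medium). Red is higher and blue lower in the first group, and dots mark the 93 tests called changed; the row of ID1 turns from blue in pNE against aNE to red in each response of pNE-derived cells.

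BMP4, the ligand most often linked to surface ectoderm induction, was highest in aNE. The libraries held 2.38 and 5.46 TPM in hPSC, 209 and 210.3 TPM in aNE, and 73.9 and 72.2 TPM in pNE. On the log2 scale BMP4 rose in aNE by 5.49 ± 0.20 (SE; adjusted p = 4.70e-10) and in pNE by 3.99 ± 0.20 (adjusted p = 9.83e-09), and pNE differed from aNE by -1.51 ± 0.20 (adjusted p = 2.40e-04). The 3 groups did not overlap, which with 2 libraries per group can also happen without a difference, here and below. In bulk samples, fewer cells that make an RNA and less RNA per cell cannot be told apart, here and below.

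At day 4 BMP4 fell from the aNE level in the forebrain medium, to 83.6 and 86.2 TPM, and in the hindbrain medium, to 79.5 and 78.2 TPM. In the midbrain medium it was at 104 and 113 TPM, a difference from aNE of -0.94 ± 0.20 (SE; adjusted p = 0.00291) that did not reach the fold minimum. In pNE-derived cells it fell to 22.3 and 27.7 TPM in the forebrain medium and to 19.5 and 19.8 TPM in the hindbrain medium. It was at 132.8 and 132.5 TPM in the midbrain medium, a log2 difference of the hindbrain from the midbrain medium of -2.70 ± 0.20 (SE; adjusted p = 8.81e-07). Cells of posterior origin thus had less BMP4 than those of anterior origin in the forebrain (log2 difference -1.73 ± 0.20, SE; adjusted p = 3.41e-05) and hindbrain media (-1.95 ± 0.20; adjusted p = 1.33e-05). In the midbrain medium the difference was 0.29 ± 0.20 (SE; adjusted p = 0.409). The interaction was called for BMP4 in the midbrain medium only (1.80 ± 0.29, SE; adjusted p = 9.20e-04).

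BMP7, a ligand that also forms heterodimers with BMP2 and BMP4, had nearly the same mean levels in both origins at day 2 and in the forebrain medium. It was at 3.37 and 2.40 TPM in hPSC, 82.7 and 83.3 TPM in aNE, and 65.8 and 100.7 TPM in pNE, where the replicates lay further apart than in aNE. The rises from hPSC were 4.44 ± 0.17 (SE; adjusted p = 6.64e-10) and 4.42 ± 0.17 (adjusted p = 7.45e-10), and pNE differed from aNE by -0.03 ± 0.17 (adjusted p = 0.959). At day 4 it was highest in the forebrain medium, at 163 and 156 TPM in aNE_T and 161 and 168 TPM in pNE_T, and these 2 groups overlapped. It was lowest in the midbrain medium, at 52.2 and 48.6 TPM in aNE_M and 47.0 and 38.2 TPM in pNE_M. The hindbrain medium lay between, at 93.4 and 83.0 TPM in aNE_H and 127 and 109 TPM in pNE_H. No comparison of the origins was called for BMP7, and the log2 differences lay between -0.25 and 0.41. Between midbrain and forebrain media it differed by -1.64 ± 0.17 (SE; adjusted p = 8.05e-06) after anterior and by -1.93 ± 0.17 (adjusted p = 2.18e-06) after posterior origin. Its rise from pNE to pNE_T (1.01 ± 0.17, SE; adjusted p = 5.61e-04) was not called without pNE replicate 1 (0.70), without pNE_T replicate 2 (0.97), or in a fit of the compared libraries alone (adjusted p = 0.0805).

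The balance of BMP7 to BMP4 differed with both medium and origin. The ratio of their TPM in a library was 0.396 in both aNE libraries, and at day 4 in aNE-derived cells it was 1.95 and 1.81 in aNE_T, 0.503 and 0.430 in aNE_M, and 1.17 and 1.06 in aNE_H. In pNE-derived cells it reached 7.21 and 6.08 in pNE_T and 6.52 and 5.51 in pNE_H, but was 0.353 and 0.288 in pNE_M. BMP4 exceeded BMP7 in aNE and in both midbrain-medium groups, and BMP7 exceeded BMP4 in both libraries of the forebrain and hindbrain groups of either origin.

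BMP2, a close relative of BMP4, was highest in pNE_H. The libraries were at 1.52 and 1.89 TPM in hPSC, 16.1 and 14.3 TPM in aNE, and 7.80 and 9.87 TPM in pNE. In the hindbrain medium it was at 59.9 and 59.04 TPM in pNE-derived but 17.4 and 15.4 TPM in aNE-derived cells, a log2 difference of 1.80 ± 0.12 (SE; adjusted p = 1.86e-07). The midbrain medium gave the opposite order, with 42.8 and 47.5 TPM in aNE_M and 18.9 and 20.4 TPM in pNE_M (-1.16 ± 0.12; adjusted p = 1.31e-05). In the forebrain medium it was at 11.9 and 12.4 TPM in aNE_T and 22.3 and 21.9 TPM in pNE_T (0.82 ± 0.12; adjusted p = 2.22e-04), below the fold minimum. BMP2 rose from pNE in all 3 media, by 1.24, 1.08 and 2.63, and from aNE in the midbrain medium only, by 1.51. The rise from pNE to pNE_M was 0.92 and not called without pNE replicate 1.

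BMP5, a relative of BMP7 expressed at the dorsal midline of the embryonic neural tube, followed the medium. It was listed at 0 in both hPSC libraries and was at most 0.189 TPM in a day-2 library and 0.363 TPM in a forebrain-medium library. In the midbrain medium it was at 13.6 and 16.9 TPM in aNE_M and 7.32 and 8.46 TPM in pNE_M, and in the hindbrain medium at 12.0 and 11.7 TPM in aNE_H and 4.98 and 6.23 TPM in pNE_H. The rises from day 2 were 3.83 ± 0.17 (SE; adjusted p = 1.48e-09) and 3.50 ± 0.17 (adjusted p = 7.00e-09) in aNE-derived cells. In pNE-derived cells they were 3.08 ± 0.17 (adjusted p = 1.40e-08) and 2.65 ± 0.17 (adjusted p = 6.34e-08). The values in pNE-derived cells were lower in both media without overlap, by -0.86 ± 0.17 (SE; adjusted p = 0.00247) and -0.96 ± 0.17 (adjusted p = 8.89e-04), and neither difference reached the fold minimum. With a pseudocount of 0.1 the rises of BMP5 were 6.06 and 5.71 in aNE-derived and 5.75 and 5.26 in pNE-derived cells, since its day-2 levels lie far below 1 TPM. BMP5 passed the filter on low values only through the midbrain-medium and hindbrain-medium groups. The tests of these groups against day 2 or the forebrain medium are therefore not independent of the filter. Their calls were kept with no filter.

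**Figure D2:**
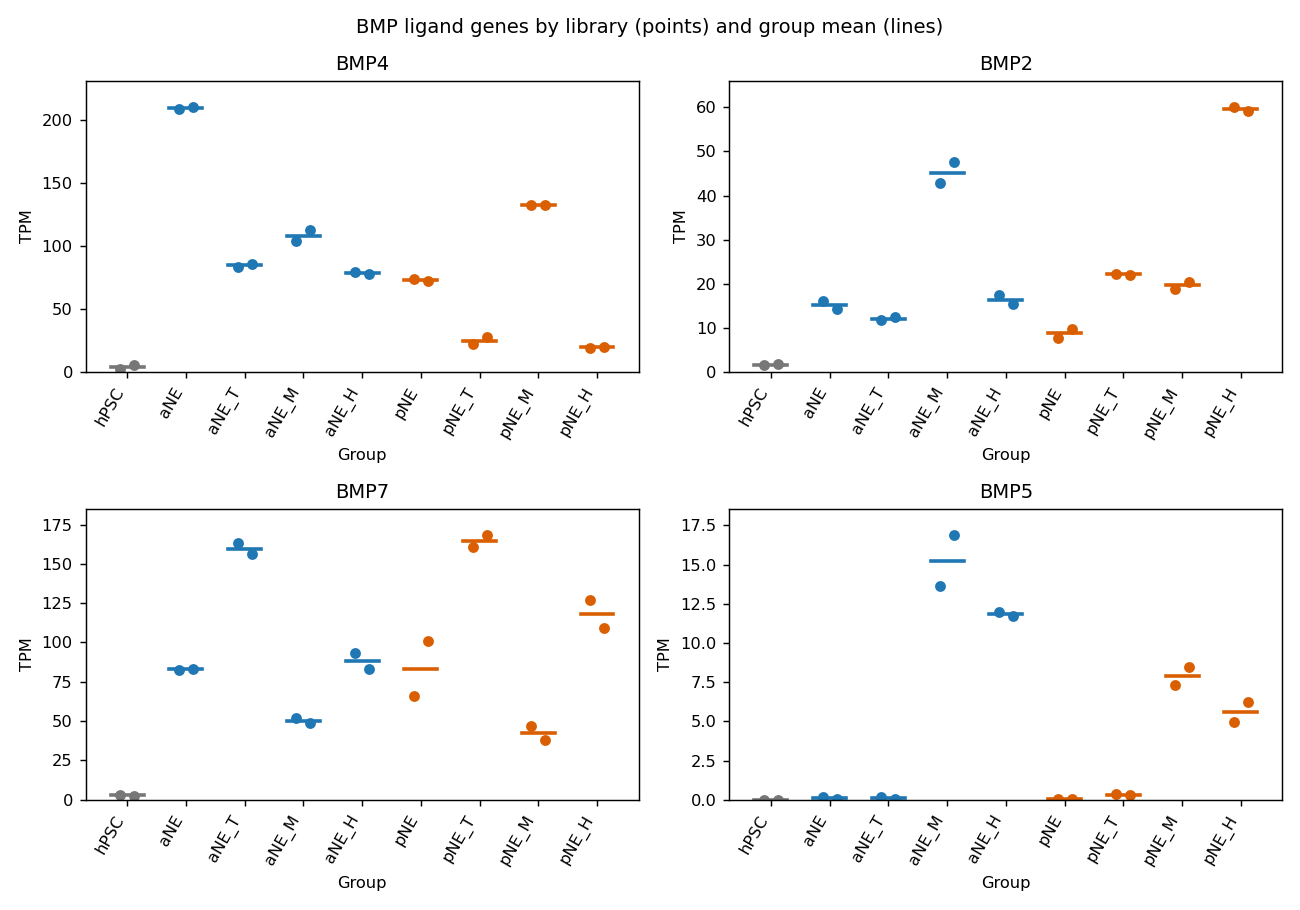
TPM of the 4 BMP ligand genes (linear axes from 0) in the 18 libraries: points are libraries, lines are group means of 2, grey is hPSC, blue aNE and aNE-derived, orange pNE and pNE-derived cells. BMP4 peaks in aNE at 209 and 210.3 TPM, BMP7 in the 2 forebrain-medium groups, BMP2 in pNE_H and aNE_M, and BMP5 is above 1 TPM in the midbrain and hindbrain media only.

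The other ligands of the BMP class were low. Of 11 such genes 6 were tested, and BMP10, BMP15, GDF2, GDF5 and GDF7 did not pass the filter on low values. None of the 6 was called in aNE or pNE against hPSC or between pNE and aNE. GDF10 was the one most abundant in a group, at 10.6 TPM on average in aNE_H against 1.53 TPM in pNE_H (log2 difference of pNE_H from aNE_H -2.20 ± 0.22, SE; adjusted p = 1.08e-05). The 4 ligand genes summed to 7.27 and 9.75 TPM in hPSC and to between 148 and 308 TPM in every later library.

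The co-receptors RGMA and RGMB rose in both day-2 populations. Of 12 receptor and co-receptor genes 11 were tested (HJV was not), and 2 were called higher in aNE than in hPSC (13.5% of all tested genes were called), with 2 higher and 1 lower in pNE (12.9%). RGMA rose by 2.43 ± 0.13 (SE; adjusted p = 1.29e-08) in aNE and 1.05 ± 0.13 (adjusted p = 3.24e-05) in pNE, and RGMB by 2.35 ± 0.17 and 3.31 ± 0.17. RGMA was the 1 receptor-list gene called between pNE and aNE (-1.39 ± 0.13; adjusted p = 9.10e-06). BMPR1B, a type I receptor, was called higher in all 6 comparisons of day-4 cells with their day-2 origin, with rises of 1.03, 2.81 and 1.46 in aNE_T, aNE_M and aNE_H and 1.18, 2.17 and 2.25 in pNE_T, pNE_M and pNE_H. Its mean was 0.57 TPM in aNE and 9.96 TPM in aNE_M. The main type I receptor BMPR1A was at 28.0 to 50.6 TPM in the group means and was not called in any of the 21 comparisons. Of the 4 transducing SMAD genes, SMAD1 rose in pNE (1.02 ± 0.15, SE; adjusted p = 1.09e-04), and none was called in any other comparison.

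ID1 had the clearest difference between origins. It was at 153 and 142 TPM in hPSC and at 131 and 135 TPM in aNE, but at 15.0 and 21.3 TPM in pNE. ID1 fell in pNE against hPSC by 2.97 on the log2 scale (SE 0.18; adjusted p = 5.37e-08) and was lower than in aNE by a log2 difference of -2.83 ± 0.18 (adjusted p = 3.06e-07). In aNE against hPSC the difference was -0.14 ± 0.18 (adjusted p = 0.569) and was not called, although the libraries did not overlap.

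By day 4 the order was the other way round. In pNE-derived cells ID1 was at 181 and 202.5 TPM in the forebrain medium, 162 and 167 TPM in the midbrain medium and 368 and 274 TPM in the hindbrain medium, and every one of these libraries lay above every hPSC and aNE library. The rises from pNE were 3.35 ± 0.18, 3.13 ± 0.18 and 4.08 ± 0.18 (SE; adjusted p = 2.38e-08, 2.89e-08 and 3.44e-09). In aNE-derived cells ID1 was at 76.7 and 74.9 TPM, 58.0 and 45.6 TPM, and 48.8 and 35.2 TPM in the same media. It fell from aNE in the midbrain and hindbrain media, by 1.36 (adjusted p = 7.14e-05) and 1.66 (adjusted p = 1.61e-05) on the log2 scale, and differed by -0.81 ± 0.18 in the forebrain medium (SE; adjusted p = 0.00446). The interactions were 4.15 ± 0.26, 4.49 ± 0.26 and 5.74 ± 0.26 (SE; adjusted p = 2.16e-07, 1.24e-07 and 1.54e-08), the largest of the 10 genes in each medium. The day-3 forebrain medium listed LDN193189 for both origins. The part of BMP receptor signalling in the ID1 values was not tested.

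ID2 shared the low point of ID1 in pNE. It was at 29.0 and 29.3 TPM in hPSC, 54.4 and 52.7 TPM in aNE, and 7.62 and 10.4 TPM in pNE, a log2 difference between pNE and aNE of -2.46 ± 0.17 (SE; adjusted p = 6.43e-07). It rose from pNE to 58.2 and 42.1 TPM in the forebrain medium, 28.0 and 24.2 TPM in the midbrain medium and 49.3 and 57.0 TPM in the hindbrain medium, by 2.35, 1.45 and 2.45. In aNE-derived cells it was at 29.9 to 45.0 TPM and was not called against aNE in any medium. Unlike ID1, ID2 was not called between the origins at day 4 (log2 differences 0.19, -0.74 and 0.58). Exons of ID2 overlap those of the antisense gene ID2-AS1 in the GENCODE v29 annotation, and it is not stated whether counting used the strand. The pseudogene ID2B was listed at 0 in every library.

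ID3 was the most abundant ID gene in every group and did not follow ID1 at day 2. It was at 369 and 366 TPM in hPSC, 450.2 and 476 TPM in aNE, and 469.7 and 488 TPM in pNE. The difference between pNE and aNE was 0.05 ± 0.10 on the log2 scale (SE; adjusted p = 0.817), and the groups overlapped. At day 4 it held 428 to 547 TPM in the 6 aNE-derived libraries, with no call against aNE. In pNE-derived cells it fell in the forebrain medium, to 232 and 217 TPM (-1.09 ± 0.10; adjusted p = 1.93e-06), and rose in the hindbrain medium, to 1141 and 973 TPM (1.14 ± 0.10; adjusted p = 9.57e-07). In the midbrain medium it was at 881 and 961 TPM (0.94 ± 0.10; adjusted p = 5.53e-06), below the fold minimum. ID3 was higher in pNE_H than in aNE_H by 1.05 ± 0.10 (SE; adjusted p = 3.78e-06), a value of 0.93 and no call without pNE_H replicate 1. The interactions of ID3 were -0.98, 0.86 and 0.998 in the forebrain, midbrain and hindbrain media (adjusted p = 2.48e-04, 7.50e-04 and 2.06e-04). All lay below the fold minimum.

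The make-up of the ID pool differed accordingly. ID3 made up 90.6% and 91.9% of the summed ID1 to ID4 TPM in pNE, 68.8% and 69.9% in aNE, and 46.2% and 43.9% in pNE_T. The sum itself was 511 to 538 TPM in pNE, 494 to 501 TPM in pNE_T and 534 to 698 TPM in the aNE-derived libraries. It was 1089 to 1168 TPM in pNE_M and 1341 to 1599 TPM in pNE_H, above every other library.

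ID4, which is linked to neural progenitor expansion and is the most divergent member, was at similar levels in aNE and pNE and differed between the origins in the midbrain and hindbrain media. It was at 1.99 and 1.72 TPM in hPSC, 18.2 and 17.5 TPM in aNE, and 18.6 and 19.1 TPM in pNE, and it rose by 2.72 ± 0.13 (SE; adjusted p = 5.89e-09) and 2.80 ± 0.13 (adjusted p = 4.60e-09). It peaked in aNE_H at 95.8 and 96.6 TPM, against 40.6 and 36.7 TPM in pNE_H (log2 difference of pNE_H from aNE_H -1.29 ± 0.13; adjusted p = 1.08e-05). In the midbrain medium it was at 9.34 and 6.47 TPM in aNE_M and 18.4 and 15.6 TPM in pNE_M (1.03 ± 0.13; adjusted p = 1.00e-04), and in the forebrain medium at 29.7 and 29.5 TPM in aNE_T and 30.5 and 32.5 TPM in pNE_T. The midbrain difference was 0.80 without aNE_M replicate 2 and 0.92 without pNE_M replicate 1, and not called in either case or in a fit of the compared libraries alone (adjusted p = 0.114). The fall from aNE to aNE_M (-1.10 ± 0.13, SE; adjusted p = 2.74e-05) was -0.86 and not called without aNE_M replicate 2.

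**Figure D3:**
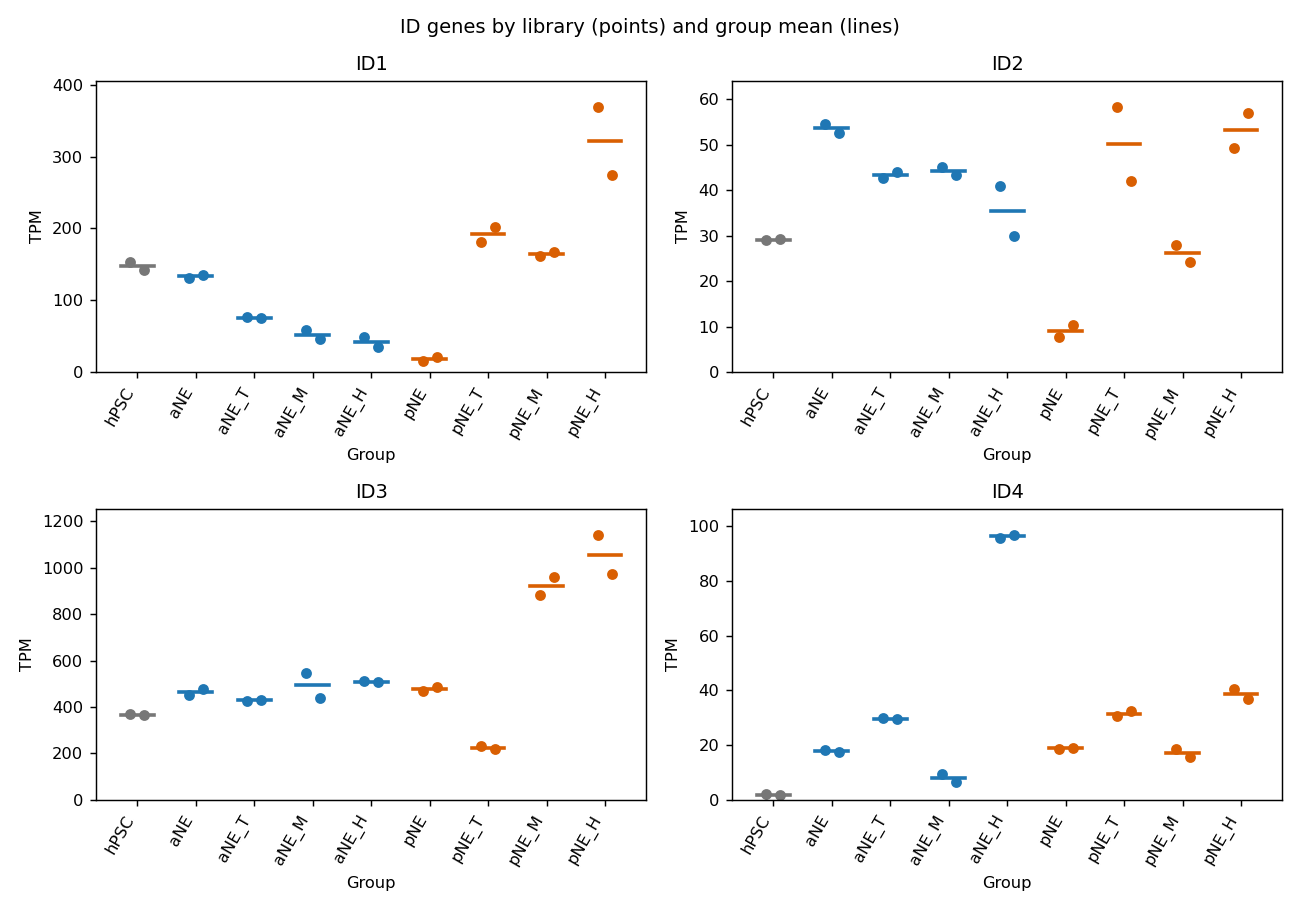
TPM of the 4 ID genes (linear axes from 0) in the 18 libraries: points are libraries, lines are group means of 2, grey is hPSC, blue aNE and aNE-derived, orange pNE and pNE-derived cells. ID1 and ID2 have their lowest values in pNE (15.0 and 21.3 TPM for ID1), ID3 does not, and ID4 peaks in aNE_H at 95.8 and 96.6 TPM.

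SMAD6, which mainly restrains BMP receptors, was higher in pNE-derived cells in every medium. It was at 2.48 and 1.97 TPM in hPSC, 5.46 and 6.84 TPM in aNE, and 3.81 and 4.71 TPM in pNE. It rose in aNE (1.15 ± 0.17, SE; adjusted p = 1.79e-04), and the difference of pNE from hPSC was 0.71 ± 0.17 (adjusted p = 0.00614). In pNE-derived cells it was at 16.6 and 16.2 TPM in the forebrain medium, 10.7 and 12.0 TPM in the midbrain medium and 17.5 and 12.7 TPM in the hindbrain medium. In aNE-derived cells it was at 5.12 and 5.20 TPM, 3.40 and 2.54 TPM, and 6.01 and 6.70 TPM in the same media. The origins did not overlap in any of them. The log2 differences were 1.50 ± 0.17, 1.65 ± 0.17 and 1.12 ± 0.17 (SE; adjusted p = 2.95e-05, 1.75e-05 and 4.25e-04), and the rises from pNE were 1.74, 1.24 and 1.61. The hindbrain difference was 0.90 and not called without pNE_H replicate 1, and its adjusted p was 0.0838 in a fit of the compared libraries alone.

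SMAD7, which restrains both BMP and TGF-beta receptors, was highest in hPSC. It was at 18.6 and 16.7 TPM there, 2.52 and 1.25 TPM in aNE, and 1.74 and 2.91 TPM in pNE, and it fell by 2.72 on the log2 scale (SE 0.23; adjusted p = 1.21e-06) in aNE and by 2.51 (SE 0.23; adjusted p = 2.69e-06) in pNE. All day-4 libraries lay between 2.01 and 7.07 TPM. It rose from aNE in the midbrain medium (1.44 ± 0.23, SE; adjusted p = 3.37e-04) and in the forebrain medium (1.05 ± 0.23; adjusted p = 0.00390). The forebrain value was 0.73 and 0.86, and not called, without aNE replicate 2 and without aNE_T replicate 1, and its adjusted p was 0.0883 in a fit of the compared libraries alone. In pNE-derived cells no response of SMAD7 was called. SMAD6 and SMAD7 thus stood in different proportions, with a TPM ratio of SMAD6 to SMAD7 of 0.133 and 0.118 in hPSC and 6.87 and 8.09 in pNE_T.

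**Figure D4:**
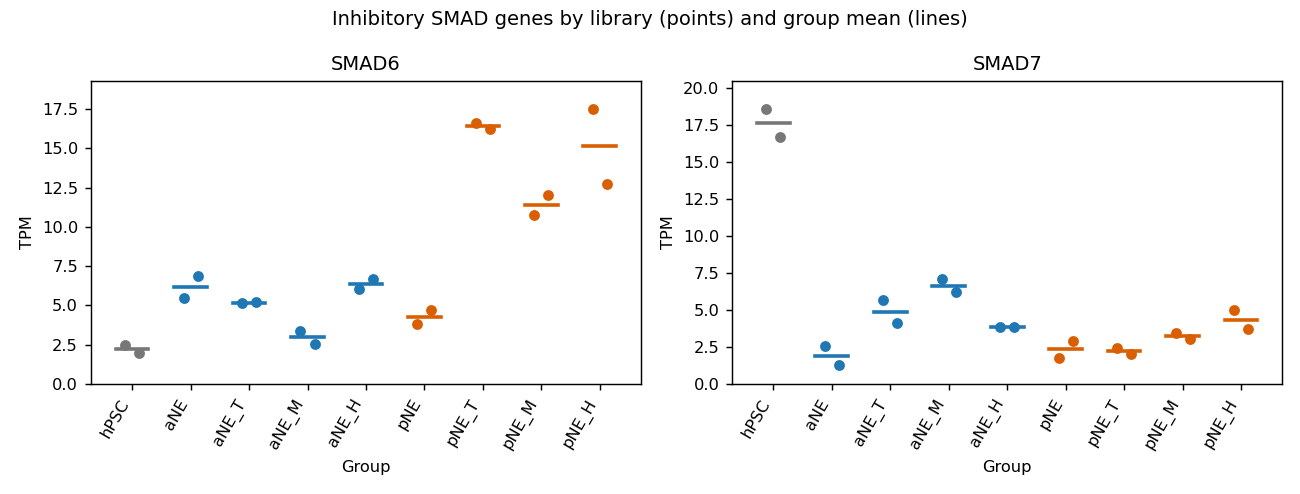
TPM of SMAD6 and SMAD7 (linear axes from 0) in the 18 libraries: points are libraries, lines are group means of 2, grey is hPSC, blue aNE and aNE-derived, orange pNE and pNE-derived cells. SMAD6 lies at 10.7 TPM or more in the 6 pNE-derived libraries and at 6.84 TPM or less in all others; SMAD7 lies at 16.7 TPM or more in hPSC only.

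Levels in neighbouring groups were not always distinct. Ranked by mean, ID2 in aNE, pNE_H, pNE_T, aNE_M and aNE_T formed a run in which each group overlapped the next, and so did ID3 in aNE_H, aNE_M, pNE and aNE. SMAD7 overlapped between pNE, pNE_T and aNE, and BMP7 between aNE_H, pNE and aNE. BMP4 groups did not overlap with their neighbours anywhere in the order aNE, pNE_M, aNE_M, aNE_T, aNE_H, pNE, pNE_T, pNE_H, hPSC.

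Other genes known to respond to BMP signalling gave a mixed picture. Of 9 such genes, all tested, 2 were higher and none lower in pNE than in aNE (3.85% of all tested genes were called). Between pNE-derived and aNE-derived cells 2 were higher and 1 was lower in forebrain medium. The counts were 4 and 1 in midbrain medium and 4 and 2 in hindbrain medium. In the same order the list medians were 0.27, 0.27 and -0.14, and 7.77%, 5.74% and 6.83% of all tested genes were called. BAMBI, a decoy receptor induced by BMP and WNT signalling, was higher in pNE-derived cells in each medium, by 5.21 ± 0.13, 1.64 ± 0.13 and 2.45 ± 0.13 (SE; adjusted p = 2.73e-11, 1.14e-06 and 2.24e-08). It averaged 5.49 TPM in aNE and 5.87 in pNE, but 0.95 in aNE_T and 71.2 in pNE_T. ATOH8, a bHLH factor, was already higher in pNE than in aNE at day 2, by 5.21 ± 0.14 (SE; adjusted p = 1.21e-10), and by 3.05, 2.26 and 2.09 at day 4. The homeobox gene MSX1 followed the medium, with rises from day 2 in the midbrain medium of 7.50 ± 0.20 (SE; adjusted p = 2.59e-11) in aNE-derived and 8.42 ± 0.20 (adjusted p = 9.55e-12) in pNE-derived cells. In the hindbrain medium its rises were 5.87 ± 0.20 and 4.35 ± 0.20, and in the forebrain medium it was not called in either origin. DLX5 differed in the other direction, at -1.14 ± 0.15 in the forebrain medium and -1.94 ± 0.15 in the hindbrain medium for pNE-derived against aNE-derived cells.

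Among the secreted antagonists GREM1 and FST rose in both day-2 populations, and NOG rose at day 4. Of 15 antagonist genes 13 were tested, and 5 were higher and none lower in aNE than in hPSC (13.5% of all tested genes were called), with 6 higher and 1 lower in pNE (12.9%). The remaining 8 in aNE and 6 in pNE were not called. GREM1, which binds BMP2, BMP4 and BMP7, rose by 4.65 ± 0.09 (SE; adjusted p = 1.43e-12) in aNE and 2.86 ± 0.09 (adjusted p = 6.11e-11) in pNE. FST, an activin and BMP antagonist, rose by 3.28 ± 0.14 and 1.35 ± 0.14. Both were lower in pNE than in aNE, by -1.79 ± 0.09 and -1.92 ± 0.14. NOG, the classical organizer antagonist, rose from day 2 in the midbrain medium by 5.01 ± 0.19 in aNE-derived and 5.82 ± 0.19 in pNE-derived cells, and in the hindbrain medium by 4.74 ± 0.19 and 4.92 ± 0.19. It rose by 2.55 ± 0.19 in pNE_T and by 1.43 ± 0.19 in aNE_T, so that the media in which BMP5 was above 1 TPM were also those with the highest NOG. BMPER, a secreted BMP-binding modulator, changed in opposite directions in the forebrain medium, by -1.80 ± 0.21 in aNE_T and 3.04 ± 0.21 in pNE_T (SE; adjusted p = 2.58e-05 and 1.87e-07), with means of 1.29 and 38.4 TPM. Of 5 intracellular negative regulators, SKIL changed most on leaving hPSC, by -3.38 ± 0.18 in aNE and -2.64 ± 0.18 in pNE.

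**Figure D5:**
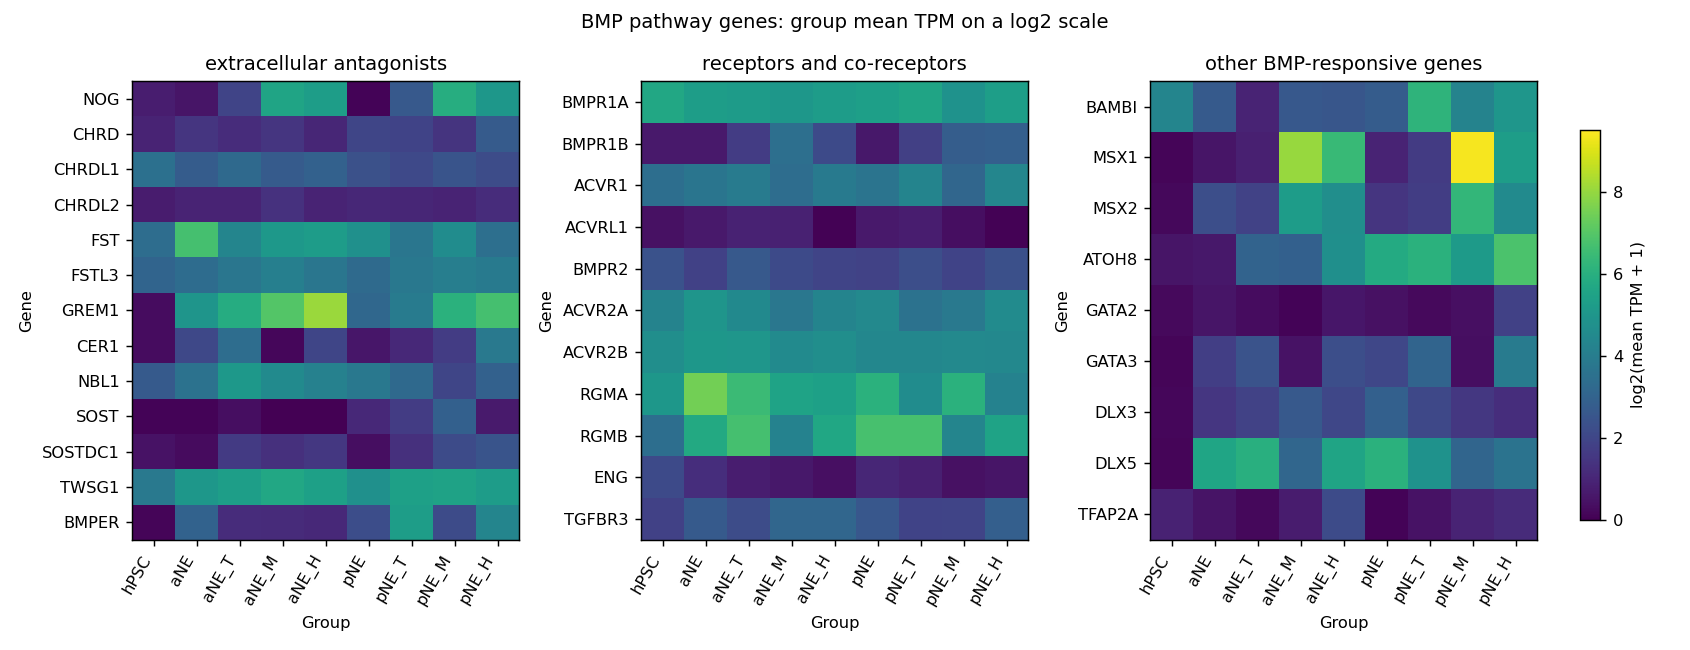
Group means of log2(mean TPM + 1) for the secreted antagonists, the receptors and co-receptors and the other BMP-responsive genes (rows, tested genes only) in the 9 groups (columns); yellow is high and dark purple low. NOG and MSX1 are high in the midbrain and hindbrain media of both origins, whereas BMPER and BAMBI are high in pNE_T, at 38.4 and 71.2 TPM.

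Changes of the E protein partners of ID proteins mostly fell short of the fold minimum. Of the E protein genes TCF3, TCF4 and TCF12, only TCF4 was called in any of the 21 comparisons. It rose by 1.03 ± 0.08 in pNE_M against pNE (SE; adjusted p = 6.88e-07), where 12.7% of all tested genes were called. The median log2 difference of the 3 genes ranged from -0.52 in pNE_T against aNE_T to 0.64 in aNE_T against aNE. The medians of all genes there were -0.05 and 0. TCF3 was the most abundant, at 203 to 354 TPM in the group means. Of 7 proneural bHLH genes 3 passed the filter and were tested. NEUROG2 was at 19.5 TPM in pNE_M and at most 1.60 TPM on average in any other group. OLIG3, which marks dorsal hindbrain progenitors among others, was higher in pNE than in aNE (3.13 ± 0.20, SE; adjusted p = 3.06e-07) at a mean of 8.16 TPM. Of 6 dorsal neural tube and roof plate genes 4 were tested (WNT1 and WNT3A were not). In pNE against aNE 2 were lower and none higher (3.85% of all tested genes were called). LMX1A differed by -2.39 ± 0.18 and ZIC1 by -2.30 ± 0.30. PAX3 rose in the midbrain medium in both origins, by 6.36 ± 0.22 and 4.74 ± 0.22.

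Markers of other cell types moved with origin and medium. The 6 surface ectoderm markers summed to 1561 to 1626 TPM in hPSC, with 991 to 1014 TPM for aNE and 1613 to 1831 TPM for pNE. At day 4 the sums were 662 to 673 TPM in aNE_T and 1448 to 1591 TPM in pNE_T, 1103 to 1180 TPM in aNE_M and 2268 to 2332 TPM in pNE_M, and 1372 to 1475 TPM in aNE_H and 1596 to 1819 TPM in pNE_H. KRT8 and KRT18 were the largest terms of the day-4 sums, and TP63, the defining marker of stratifying surface ectoderm, was below 1 TPM on average in all 9 groups. The sum of the 5 neural ectoderm markers was lower in pNE, at 278 to 311 TPM, than in aNE, at 472 to 475 TPM. It was also lower in pNE_T, at 449 to 473 TPM, than in aNE_T, at 777 to 782 TPM. In pNE_T the lower sum was mainly that of SOX2 and CDH2. SOX1 and HES5 were also lower, at 1.39 and 0.04 TPM against 4.52 and 1.17 TPM in aNE_T. PAX6 was higher, at 34.6 TPM against 18.4 TPM in aNE_T. At day 4 the surface ectoderm sum was higher in cells of posterior origin in each medium, as were ID1, SMAD6 and BAMBI. The marker EPCAM went the other way in each medium. It averaged 9.84, 8.82 and 8.58 TPM in pNE_T, pNE_M and pNE_H. In aNE_T, aNE_M and aNE_H it averaged 11.1, 12.9 and 9.26 TPM. At day 2 the surface ectoderm sum was also higher in pNE, where ID1 was lower and SMAD6 was not called. The part of these lists in the differences was not tested.

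Of the 3 endothelial markers, CDH5 was at 23.1 TPM in pNE_T and at most 6.18 TPM on average elsewhere, TEK was at 7.83 to 25.5 TPM in the groups after hPSC, and PECAM1 was below 1 TPM in every group. Their part in the ID1 values was not tested. The 5 mesendoderm markers summed to 97.2 to 116 TPM in aNE_M, led by MIXL1 at 86.5 TPM, to 13.5 to 13.8 TPM in pNE_M, and to at most 4.83 TPM in all other libraries. SOX17 was listed at 0 throughout aNE_M and pNE_M. In aNE_M EOMES and TBXT averaged 16.5 and 3.36 TPM, and TBX6 0.37 TPM against 2.99 TPM in hPSC. BMP2 and BMP5 had the same order of origins as the mesendoderm list in the midbrain medium. There BMP2 averaged 45.2 TPM after anterior and 19.6 TPM after posterior origin. BMP5 averaged 15.2 TPM against 7.89 TPM, a difference that was not called. In the hindbrain medium the list was low in both origins. The list summed to at most 2.14 TPM in pNE_H, where BMP2 averaged 59.5 TPM. It summed to at most 2.62 TPM in aNE_H, where BMP5 averaged 11.8 TPM. The part of this list in the BMP2 and BMP5 values was not tested. The 5 neural crest markers summed to 53.3 to 57.5 TPM in hPSC, at most 9.63 TPM in a day-2 library and 16.8 to 44.3 TPM at day 4. They peaked in different groups. SOX10 was highest in pNE_H at 14.5 TPM, but SNAI2 in aNE_H at 29.8 TPM, against 15.4 TPM in pNE_H. TFAP2B was highest in aNE_M at 3.37 TPM, and FOXD3 and ETS1 in hPSC at 33.5 and 18.2 TPM. Of the 4 amnion markers only IGFBP3 reached 10 TPM in any group, averaging 757 TPM in aNE_T against 179 TPM in pNE_T. The 4 pluripotency markers summed to 4035 to 4046 TPM in hPSC, and POU5F1 still averaged 163 TPM in aNE and 170.2 TPM in pNE, against at most 5.46 TPM in any day-4 group.

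Across the 9 group means, which share their libraries and the fixed total of TPM, the members resembled each other only in part. The highest Pearson's r of log2(TPM + 1) among the 45 pairs was 0.82, for BMP7 and ID4, and ID1 and ID2 had 0.67. BMP4 and ID1 had -0.38, and BMP7 and SMAD7 had the lowest value, -0.80. Among 12451 other genes with at least 5 TPM in a group mean, those most like ID1 were NT5C (r = 0.91) and CASTOR2 (0.88), and those most like BMP7 were TIRAP (0.99) and CADM1 (0.98). BMP5 was most like VPS26A and JAGN1 (both 0.97), and SMAD6 most like BVES (0.96) and TRIP11 (0.95). ID3 was most like the ribosomal protein genes RPL32 and RPS28 (both 0.89). With 9 points and this many genes searched, these values describe the profiles and carry no test.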

How the data were processed

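Poly-A RNA from 18 libraries was measured by sequencing. The authors deposited 1 table of TPM per gene, and every column has the same total. The submitters' processing notes name kallisto, Trim Galore, FastQC, bcl2fastq, deepTools and the build hg38, with no roles or versions; the annotation and the use of strand are not given in the sources used here. Depth is unknown, so no counting intervals are given.

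A gene was tested if 2 or more libraries reached 1 TPM (17033 of 37550 rows). Values were taken as log2(TPM + 1) and fitted in limma 3.58.1 (R 4.3.3) with 1 mean per group, 9 residual degrees of freedom and a variance trend. The Benjamini-Hochberg adjustment ran over all tested genes within each of 21 comparisons, and tests were two-sided. The method was tested on simulated data, with added changes larger than the fold minimum, in pNE against aNE, and not in low genes. The simulation therefore does not cover low genes or changes near the fold minimum. The members and lists were chosen with earlier results of these data known. Of each pathway list at most the 3 largest called changes were to be named per comparison; BMPR1A, BMPR1B, TCF3, NEUROG2, GDF10 and further values of genes so named were added after their values were seen. Promoter windows came from RefSeq (GRCh38.p14), and the starts of the 4 windows printed were found in GENCODE v29 transcripts of these genes. Alternatives changed the pseudocount (0.1), the filter (none, or 5 TPM), the scaling (median ratios, or quantiles), the libraries fitted (those compared only, or all but 1), the model (a replicate block, or no variance trend) and the call (adjusted p alone).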

Additional observations from a re-analysis of the deposited data

Results flagged for a closer look

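The changes from day 2 to day 4 differed between the 2 origins by the interaction test of limma, pNE-derived minus aNE-derived, for the genes that follow. In the forebrain medium the interaction was 4.15 for ID1, 2.65 for ID2, 1.94 for SMAD6, 1.54 for BMP2 and -1.08 for SMAD7 on the log2 scale (adjusted p = 2.16e-07, 7.37e-06, 1.31e-04, 3.52e-05 and 0.0499). In the midbrain medium it was 4.49 for ID1, 2.09 for SMAD6, 1.80 for BMP4, 1.72 for ID2 and -1.07 for SMAD7 (adjusted p = 1.24e-07, 6.85e-05, 9.20e-04, 3.29e-04 and 0.0474). In the hindbrain medium it was 5.74 for ID1, 3.05 for ID2, 2.52 for BMP2, 1.56 for SMAD6 and -1.37 for ID4 (adjusted p = 1.54e-08, 2.18e-06, 4.88e-07, 7.17e-04 and 2.28e-04). ID1, ID2 and SMAD6 were called in all 3 media. The values of SMAD7 lay next to the threshold and were lost under 21 of 27 alternatives in the forebrain and 19 of 27 in the midbrain medium, with adjusted p up to 0.201 and 0.186. Plating density rose more in pNE-derived cells, so it cannot be told apart from origin here.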

How the results depend on the processing

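Of the 93 calls, 84 were kept under all 27 alternatives, 9 were lost under 1 or more, and none changed direction. The 9 were the 2 SMAD7 interactions and BMP2 in pNE_M against pNE, BMP7 in pNE_T against pNE, ID3 in pNE_H against aNE_H, ID4 in aNE_M against aNE and in pNE_M against aNE_M, SMAD6 in pNE_H against aNE_H, and SMAD7 in aNE_T against aNE. Calls by adjusted p alone raised the number of calls to 22 from 13 between the origins at day 4 and to 33 from 19 between media, by construction, since no fold minimum applies. The total was then 142 of 210 tests. Fits of the compared libraries alone gave 87 calls. The other alternatives that kept all libraries gave 91 to 101 calls, and leaving out 1 library gave 90 to 97. Some values just under the fold minimum were called under both median-ratio scaling and quantile normalization. They were ID2 between pNE_H and pNE_M, ID4 between pNE_H and pNE, and the interaction of ID3 in the hindbrain medium. These scalings moved the median of all genes by at most 0.08. With the replicate number as a block the 93 calls were kept and none was gained. Same-numbered replicates of 2 groups did not deviate together (r from -0.09 to 0.08 over 36 pairs of groups), so the numbers were not treated as pairing. The table keeps no depth, which limits what low values such as those of BMP5 outside the midbrain and hindbrain media can show.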
